A study of Mus musculus with 6 samples.

Results

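The 10 BCL2 family genes Bax, Bak1, Bid, Bad, Bbc3, Pmaip1, Bcl2l11, Bcl2l1, Mcl1 and Bcl2 were compared between hepatocytes that overexpressed HuR and controls that overexpressed beta-galactosidase (beta-Gal). They were taken by gene name from a table of 54118 gene models, and each name matched 1 model. The cells were primary hepatocytes of C57BL/6 mice, obtained by collagenase perfusion of the liver and kept in culture. Each group held 3 samples. Both groups received an adenovirus overnight, which carried HuR in one and beta-Gal in the other, and uninfected cells were not analysed here. HuR, the product of Elavl1, is a protein known for binding mRNA at AU-rich or U-rich sequences. No source used here gives the age of the mice or whether replicates are separate animals or cultures. The p-values therefore reflect the spread among these libraries alone, and that spread may be technical.

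The BCL2 family decides whether the outer mitochondrial membrane stays intact. BAX and BAK form pores through which cytochrome c leaves to activate caspases. BCL-XL, MCL1 and BCL2 hold these effectors in check, and BH3-only proteins such as PUMA, NOXA, BIM, BID and BAD bind the guardians or activate the effectors directly. In mouse hepatocytes, loss of either BCL-XL or MCL1 is known to cause apoptosis, and BID carries the death receptor signal to the mitochondria.

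Values are FPKM, reads scaled by the length of the gene model and by library. Levels of different genes can be set side by side only roughly, since the model length need not be that of the transcripts present. Between 15413306 and 17108184 reads per library lie behind these values. Elavl1 read 5.45 to 5.91 FPKM in beta-Gal and 1661.8 to 2433.6 in HuR libraries, highest in HuR replicate 1. All 8 hepatocyte markers were present, with summed levels of 16990.6 to 17347.2 FPKM in beta-Gal and 18312.5 to 19536.1 in HuR libraries. Most of these sums was Alb, with means of 13387.0 and 14857.0 FPKM. Single markers moved both ways, as Tat rose from 27.4 to 42.6 FPKM and Cps1 fell from 28.9 to 18.5. Of 7 Kupffer cell markers, 6 stayed below 1 FPKM in all libraries. The exception was Cd68, at 16.6 to 19.8 FPKM in beta-Gal and 29.5 to 39.5 in HuR libraries. The summed Kupffer cell list read 17.4 to 20.8 and 30.6 to 39.9 FPKM, and the endothelial list 4.08 to 4.43 and 5.16 to 6.12 FPKM. All 6 stellate cell markers stayed below 1 FPKM, and so did all 8 lymphocyte and neutrophil markers, with Nkg7 and Ms4a1 at 0. The cholangiocyte list summed to 138.0 to 150.5 FPKM in beta-Gal and 180.2 to 198.0 in HuR libraries, nearly all of it Spp1, with Krt19 and Krt7 below 0.1. The part of other cells in the results below was not tested. In such bulk samples, fewer cells of a type and less RNA per cell cannot be told apart.

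Of the 7 pro-apoptotic members, Bbc3, Pmaip1, Bax and Bid rose in HuR libraries. Of the 3 anti-apoptotic members, Bcl2l1 rose and Mcl1 fell, whereas Bak1, Bad and Bcl2l11 did not pass the test and Bcl2 was too low to be tested. The counts are thus 5 higher and 1 lower among the 10 members, at an adjusted p under 0.05 (limma on log2(FPKM + 1), Benjamini-Hochberg over 11281 genes). Across all genes tested, 45.5% passed, 20.7% as higher and 24.8% as lower. Under TPM scaling, which moves the median log2 difference of all genes to -0.11, 1543 genes were higher and 3718 lower against 2334 and 2803 here, and 4 members were higher and 1 lower. Tested genes were those with at least 1 FPKM in at least 3 of the 6 libraries, and 9 members qualified. Pmaip1 did so only through the HuR libraries, so its inclusion already required a difference. The groups did not overlap for the same 6 members, against 58.1% of tested genes (27.4% with HuR above and 30.7% with HuR below). Pmaip1, whose groups could not overlap once it passed the filter, lends nothing to this count or to the 5 higher.

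**Figure D1:**
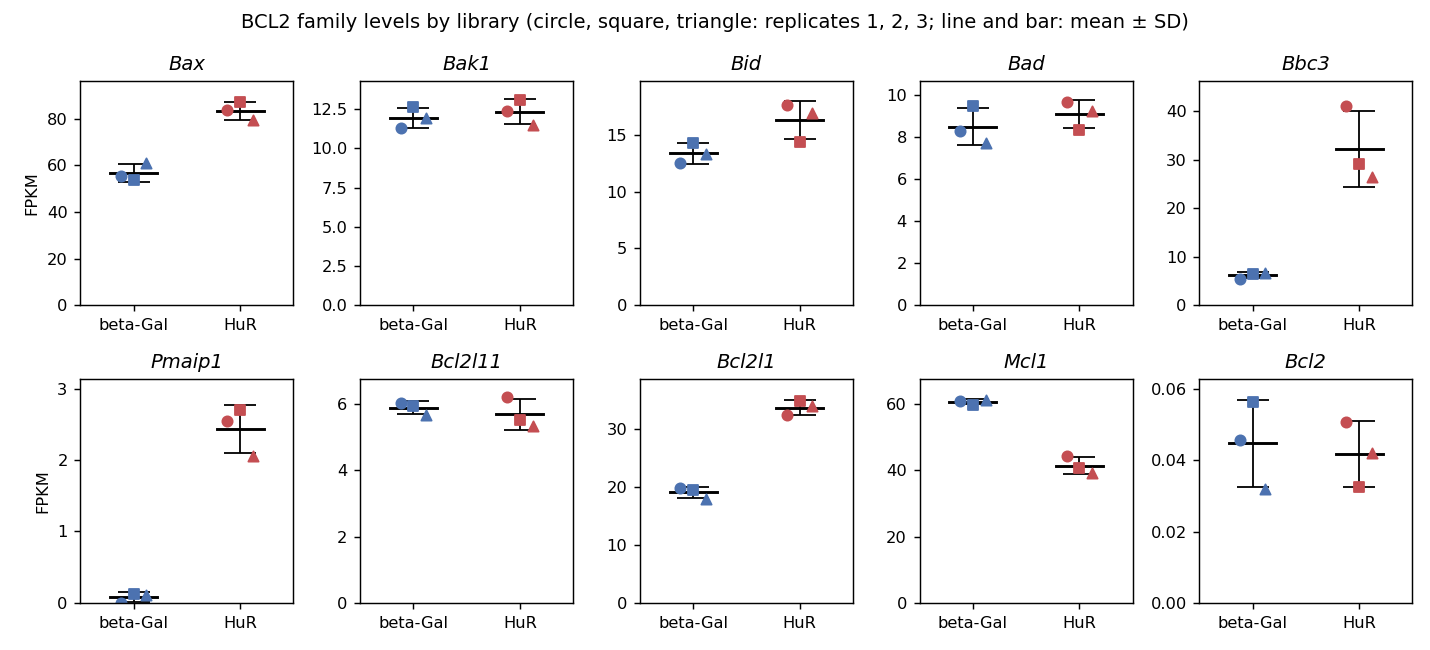
FPKM of each BCL2 family member (vertical axes, each starting at 0) in the 3 beta-Gal and 3 HuR libraries. Symbols are libraries, and lines with bars are the mean ± SD of 3. Bbc3 and Pmaip1 show the widest separation, Mcl1 is the member whose HuR libraries all lie below beta-Gal, and Bak1, Bad, Bcl2l11 and Bcl2 overlap.

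Bax, the more abundant of the pore-forming effectors, read 55.5, 53.5 and 60.9 FPKM in beta-Gal and 83.7, 87.1 and 79.3 in HuR libraries. Every HuR library lay above every beta-Gal library. The means were 56.6 ± 3.88 and 83.4 ± 3.90 FPKM (SD, n = 3 each), a 1.47-fold ratio, and the log2 difference was 0.55 (SE 0.06, limma adjusted p = 6.16e-04). Bax (ENSMUSG00000003873) lies on chromosome 7 of GRCm38 from 45461697 to 45466898, on the minus strand. The model Gm10252, 1396 bp past its end on the other strand, rose from 1.15 to 8.89 FPKM. Gm10252 overlaps Ftl1, which lies on the strand of Bax and read 1733.2 FPKM in beta-Gal and 1796.0 in HuR libraries. Whether reads cross between these genes was not tested. Bak1, the other effector, read 11.3, 12.6 and 11.9 FPKM in beta-Gal and 12.4, 13.1 and 11.5 in HuR libraries. These ranges overlap, Bak1 lies within Ggnbp1 on the opposite strand (0.751 and 1.15 FPKM), and the 95% interval of the log2 difference, -0.11 to 0.20, excludes a change of the size seen for Bax. The ratio of Bax to Bak1 was 4.24 to 5.11 in beta-Gal and 6.65 to 6.88 in HuR libraries.

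Bax and Bbc3 are textbook targets of the transcription factor p53, so their promoters are shown. The Bax window covers 250 bases before and 50 after the annotated start (RefSeq, GRCm38.p6, chr7:45466849-45467148, minus strand). Capitals mark a match to the p53 half-site, beginning at base 50 of the window.
Bax promoter: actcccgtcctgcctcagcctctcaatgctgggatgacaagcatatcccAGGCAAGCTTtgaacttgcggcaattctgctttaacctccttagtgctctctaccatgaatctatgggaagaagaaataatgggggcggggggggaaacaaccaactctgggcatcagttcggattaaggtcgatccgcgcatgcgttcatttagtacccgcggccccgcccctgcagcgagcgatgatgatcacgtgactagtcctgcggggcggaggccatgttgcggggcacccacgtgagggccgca
A p53 half-site was searched by its consensus of 10 bases, which reads the same on both strands, and 8.36% of 32851 promoter windows of the same length hold one. The Bax window was the only one of 15 windows, belonging to the 9 members searched, with a match. Pmaip1 was the member not searched. The windows of Bbc3, Bid and Bcl2l1, which also rose, hold none, which says only that these letters are not in these windows. A match is a description of letters, not a bound site.

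Bbc3, which encodes the BH3-only protein PUMA, had the largest difference of the family on the log2(FPKM + 1) scale. Its values were 5.47, 6.40 and 6.65 FPKM with beta-Gal and 41.0, 29.0 and 26.4 with HuR. HuR replicate 1 was the highest and the 3 HuR libraries spread widely, yet the lowest of them was far above all controls. The means were 6.17 ± 0.623 and 32.1 ± 7.77 FPKM (SD, n = 3 each), a 5.20-fold ratio, resting on 672 and 3219 reads. The log2 difference was 2.19 (SE 0.16, limma adjusted p = 1.36e-04), and it was 2.00 without HuR replicate 1. Only 31 of the 11281 tested genes had a larger positive difference. Bbc3 (ENSMUSG00000002083) lies on chromosome 7 from 16308393 to 16318205, on the plus strand, with no overlapping gene model at 1 FPKM or more. Sae1, on the opposite strand, ends 2028 bp past its end and read 18.6 FPKM in beta-Gal and 16.5 in HuR libraries. Whether reads of Sae1 add to Bbc3 was not tested.

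RefSeq lists 3 starts for Bbc3, and the window of the first is shown because it holds the most upstream start (chr7:16309333-16309632, plus strand). Capitals mark GGGCGG, a GC box, on either strand.
Bbc3 promoter: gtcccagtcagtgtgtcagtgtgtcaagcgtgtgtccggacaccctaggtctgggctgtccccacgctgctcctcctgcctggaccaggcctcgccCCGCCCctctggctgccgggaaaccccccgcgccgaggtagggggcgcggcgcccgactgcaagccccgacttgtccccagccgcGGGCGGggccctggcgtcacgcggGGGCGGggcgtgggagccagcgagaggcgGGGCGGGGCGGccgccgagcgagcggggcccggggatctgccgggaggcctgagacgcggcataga
This window holds 5 such matches, overlapping ones counted separately, and its GC content is 76.0%. At least 1 GGGCGG occurs in 35.7% of all promoter windows. It also occurs in windows of Bax and Bid, which rose, and of Mcl1, which fell. Windows of Bcl2, with 7 matches, and of Bcl2l11 and Bad, for which the groups overlapped, hold it too. Those of Bak1 and Bcl2l1 hold none. No window of the 9 members holds TATAAA on either strand, against 13.6% of all windows.

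Pmaip1 encodes NOXA, a BH3-only protein that binds MCL1 in preference to BCL-XL, and p53 is known to induce it. It read 0, 0.130 and 0.111 FPKM with beta-Gal and 2.54, 2.70 and 2.06 with HuR. The message was barely counted in controls and stayed low in absolute terms with HuR. These values rest on 0, 6 and 5 reads in beta-Gal and on 101, 120 and 85 reads in HuR libraries. After scaling, the summed reads were 30.0-fold higher with HuR (exact 95% interval 16.5 to 60.8, counting error only). The limma log2 difference of 1.66 (SE 0.11, adjusted p = 9.78e-05) is far smaller, because adding 1 to an FPKM near 0 compresses the change. It was 3.89 with a pseudocount of 0.1 and 5.40 on the recovered reads. Pmaip1 passed the filter only through the HuR libraries, so the adjusted p of 9.78e-05 carries no weight. With no filter on low genes the limma adjusted p was 5.33e-04. The gene (ENSMUSG00000024521) lies on chromosome 18 from 66458604 to 66465550, and its nearest neighbour upstream at 5 FPKM or more, Lman1, is 436023 bp away.

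The other BH3-only members moved little. Bid, which links death receptors to mitochondria after cleavage by caspase 8, read 12.5, 14.3 and 13.3 FPKM in beta-Gal and 17.6, 14.4 and 16.9 in HuR libraries. HuR replicate 2 lay just above the highest control. The log2 difference was 0.26 (SE 0.08, limma adjusted p = 0.0407). Leaving out 1 library ended this call in 4 cases, with an adjusted p of 0.122 and 0.101 for beta-Gal replicates 1 and 3 and of 0.0881 and 0.109 for HuR replicates 1 and 3. It also ended under TPM scaling (0.128), with no filter (0.0876) and with no mean-variance trend (0.0526). Bid overlaps Bcl2l13 on the opposite strand, and whether the counting used strand is stated in no source used here. Reads of the overlap are therefore uncertain for both.

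Bad, whose protein is kept from BCL-XL by 14-3-3 proteins when phosphorylated, read 8.29, 9.49 and 7.74 FPKM in beta-Gal and 9.70, 8.36 and 9.23 in HuR libraries. The groups overlap, and the 95% interval of the log2 difference ran from -0.11 to 0.29 (adjusted p = 0.423). Bad overlaps Gpr137 on the other strand, so its reads are uncertain as well. Bcl2l11, which encodes BIM, read 6.04, 5.94 and 5.67 FPKM in beta-Gal and 6.21, 5.51 and 5.33 in HuR libraries. It too overlapped, with an interval of -0.20 to 0.11 (adjusted p = 0.606). Neither interval reaches the difference of Bbc3 or of Pmaip1.

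**Figure D2:**
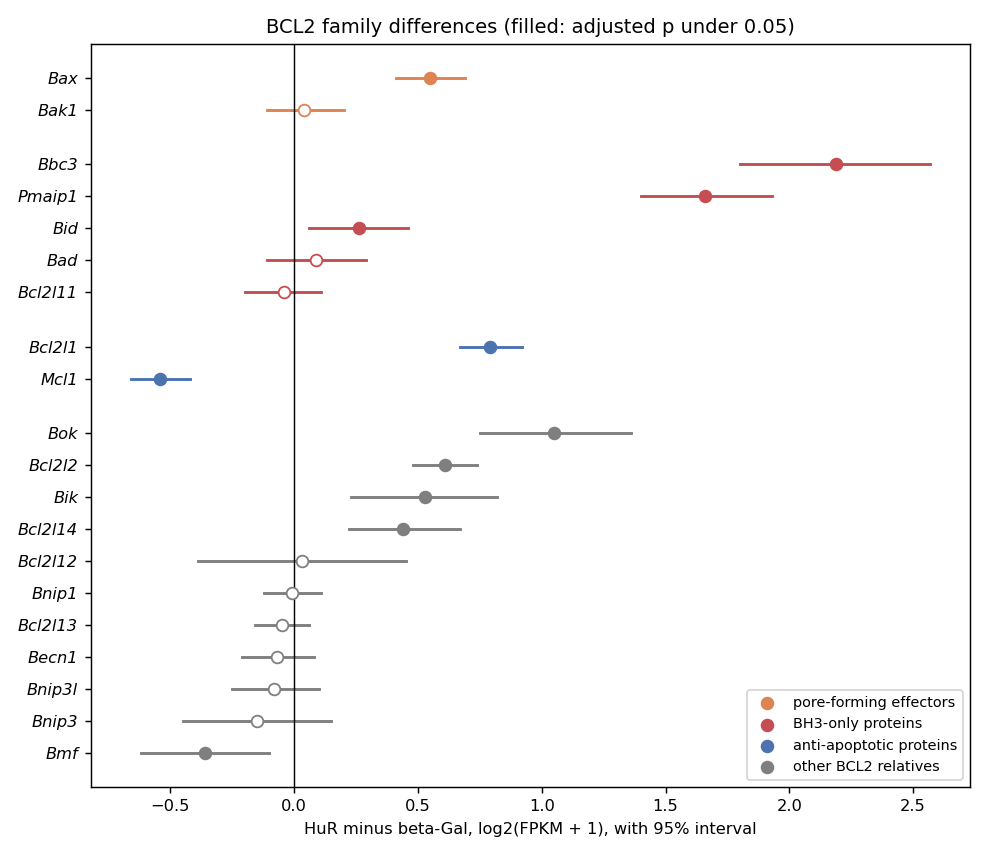
Log2 differences of HuR minus beta-Gal on the log2(FPKM + 1) scale (horizontal axis) with 95% intervals for the 9 tested members and 11 tested relatives. Filled points have an adjusted p under 0.05. Bbc3 at 2.19 and Pmaip1 at 1.66 lie farthest to the right, and Mcl1 at -0.54 lies farthest to the left.

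The anti-apoptotic members Bcl2l1 and Mcl1 changed in opposite directions. Bcl2l1, which encodes BCL-XL, read 19.8, 19.5 and 18.0 FPKM in beta-Gal and 32.4, 34.9 and 34.0 in HuR libraries. The groups stood well apart and the HuR libraries were tight. The means were 19.1 ± 0.944 and 33.8 ± 1.27 FPKM (SD, n = 3 each), 0.79 apart on the log2 scale (SE 0.05, limma adjusted p = 8.40e-05). The gene lies on chromosome 2 from 152780668 to 152831728. Its pre-mRNA is known to be spliced to a long protective and a short pro-apoptotic form, and a level per gene does not separate them. Mcl1, a short-lived guardian, read 61.0, 59.8 and 61.3 FPKM in beta-Gal and 44.2, 40.8 and 39.3 in HuR libraries. It was the member that fell, with all HuR libraries below all controls. The means were 60.7 ± 0.771 and 41.5 ± 2.48 FPKM (SD, n = 3 each), a change of -0.54 on the log2 scale (SE 0.05, limma adjusted p = 2.88e-04). Mcl1 (ENSMUSG00000038612) lies on chromosome 3 from 95658788 to 95663176.

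Bcl2, the founding member of the family, was barely counted. It read 0.0458, 0.0564 and 0.0320 FPKM in beta-Gal and 0.0508, 0.0325 and 0.0420 in HuR libraries, on 5 to 9 reads per library. The scaled ratio of the summed reads was 0.925 (exact 95% interval 0.464 to 1.82, counting error only), so a difference within these bounds was not detectable at this depth. With no filter on low genes its adjusted p was 0.917.

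HuR is known for binding AU-rich stretches, and human MCL1 and BCL2 messages have been reported as bound by it, so the 3' UTRs of the anti-apoptotic members are described by the pentamer ATTTA. Letters are given as DNA on the transcript strand, from GENCODE M21, for the transcript of each gene with the longest 3' UTR. Mcl1 holds 8 pentamers in 2353 bases, or 3.40 per kb, a density above that of 84.9% of 9640 tested genes. Bcl2l1 holds 1 in 1477 bases, or 0.677 per kb, above 36.8% of those genes. Bcl2 holds 15 in 5086 bases, or 2.95 per kb, above 79.7%. The median of those genes is 1.28 per kb. Bcl2 also holds 2 matches to the longer TTATTTATT, which contains the pentamer and occurs in 7.73% of those genes. Sites of 29 bases are shown, with ATTTA in capitals for Mcl1 and Bcl2l1 and TTATTTATT for Bcl2, to set the member that fell beside the one that rose and the one that was barely counted.
Mcl1 (chr3:95660884-95660912, plus strand): aaacatgtgtATTTAtgaaggtggacttg
Bcl2l1 (chr2:152780890-152780918, minus strand): gcgtgtctgtATTTAtgtgtgaggagctg
Bcl2 (chr1:106543003-106543031, minus strand): atttaggaaaaaaaagatTTATTTATTta
Among the pro-apoptotic members, the 3' UTRs of Bax, Bak1, Bid and Bbc3 hold no ATTTA, that of Bad holds 1, that of Pmaip1 4 and that of Bcl2l11 6. Densities were 1.82 per kb for Pmaip1, which rose, and 0.975 and 1.42 for Bad and Bcl2l11, whose groups overlapped. At least 1 pentamer occurs in 68.5% of tested genes. Messages with and without the pentamer are among those that rose, and a match does not show that HuR binds there.

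The order of levels within the family differed between the groups. In beta-Gal libraries Mcl1 and Bax led with overlapping ranges (59.8 to 61.3 and 53.5 to 60.9 FPKM), followed by Bcl2l1. Bid and Bak1 came next and overlapped, then Bad, then Bbc3 and Bcl2l11, which overlapped at about 6 FPKM, with Pmaip1 and Bcl2 overlapping at the bottom. In HuR libraries Bax stood alone at the top, and Mcl1 had the next highest mean. Bbc3, at 26.4 to 41.0 FPKM, overlapped both Bcl2l1 at 32.4 to 34.9 and Mcl1 at 39.3 to 44.2, while Mcl1 and Bcl2l1 stood apart. Bid, Bak1, Bad, Bcl2l11, Pmaip1 and Bcl2 followed without overlap between neighbours.

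Summed over members, the pro-apoptotic level read 99.1, 102.4 and 106.4 FPKM in beta-Gal and 173.1, 160.2 and 150.8 in HuR libraries. The anti-apoptotic sum read 80.8, 79.3 and 79.3 FPKM and 76.7, 75.8 and 73.4. The first sum was thus 57.3% higher in the mean of HuR libraries, and the second differed by -5.63%. The makeup of the second sum also differed. Mcl1 made up 75.4 to 77.3% of the anti-apoptotic FPKM in beta-Gal and 53.6 to 57.6% in HuR libraries, and Bcl2l1 nearly all the rest. Bbc3 made up 16.9 to 19.9% of the BH3-only FPKM in beta-Gal and 44.1 to 53.2% in HuR libraries. The ratio of pro- to anti-apoptotic FPKM was 1.23 to 1.34 and 2.05 to 2.26. Single pairs behaved differently, since Bax over Mcl1 was 0.894 to 0.995 and 1.89 to 2.13, while Bax over Bcl2l1 was 2.75 to 3.39 and 2.33 to 2.58. These sums and ratios are descriptions of message levels, with no test. They depend on the model lengths used for scaling and say nothing of protein. The sums, shares and ratios also cover the 10 members alone. They leave out the anti-apoptotic relative Bcl2l2, with means of 10.1 FPKM in beta-Gal and 15.9 in HuR libraries. Its rise exceeds the fall of the anti-apoptotic mean, so the sign of that change depends on which genes are summed. Pro-apoptotic relatives, some higher and some lower with HuR, are left out as well.

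**Figure D3:**
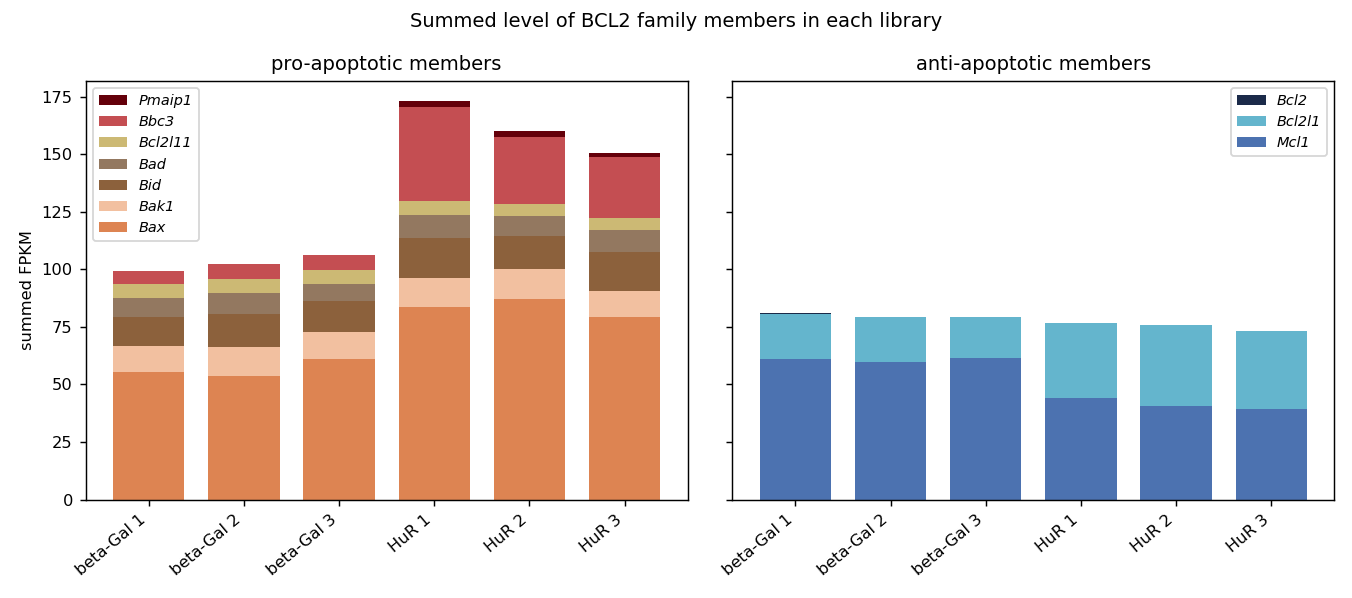
Summed FPKM (vertical axis, from 0) of pro-apoptotic members on the left and anti-apoptotic members on the right in each of the 6 libraries, stacked by gene. The pro-apoptotic stacks reach 99.1 to 106.4 in beta-Gal and 150.8 to 173.1 in HuR libraries, with taller Bax and Bbc3 segments, and the anti-apoptotic stacks of HuR libraries hold less Mcl1 and more Bcl2l1.

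Of 17 further relatives of the family, 11 could be tested, of which 4 rose and 1 fell. The share called, 45.5%, is that of all tested genes, but it counts Bmf, which passed the filter only through the beta-Gal libraries. The median log2 difference was -0.01 beside -0.01 over all tested genes. Of the lists described further on, 45.5 to 54.5% of the tested genes were called, near that background, so their counts are descriptions of the lists. Bok, an effector-like protein, read 1.59, 1.59 and 1.88 FPKM in beta-Gal and 4.15, 3.98 and 5.75 in HuR libraries, 1.05 apart on the log2 scale (SE 0.13, limma adjusted p = 9.12e-04). Bcl2l2, which encodes the anti-apoptotic BCL-W, read 10.5, 10.3 and 9.36 FPKM and 16.2, 15.8 and 15.6, a difference of 0.61 (SE 0.05, limma adjusted p = 2.64e-04). Both stood apart between the groups. The BH3-only gene Bik rose by 0.53 on the log2 scale, from 3.81 ± 0.346 to 5.99 ± 1.11 FPKM, and Bcl2l14 rose by 0.44 from 1.10 ± 0.184 to 1.85 ± 0.131 (SD, n = 3 each). Bmf, another BH3-only gene, fell by 0.36 from 1.21 ± 0.0958 to 0.725 ± 0.179 FPKM (limma adjusted p = 0.0331). It reached 1 FPKM only in the 3 beta-Gal libraries, so its inclusion in the test already required a difference. Its fall therefore carries no weight, although the 1 fall and the share of 45.5% above count it. Its call ended without any 1 beta-Gal replicate (0.0724 to 0.106) or without HuR replicate 1 (0.0545), as well as with no filter (0.0726) and with median centring (0.0579).

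The mitophagy receptors Bnip3 and Bnip3l and the autophagy gene Becn1 did not pass, with log2 differences of -0.15, -0.08 and -0.07 and intervals of -0.45 to 0.15, -0.25 to 0.10 and -0.21 to 0.08. Bcl2l12, Bcl2l13 and Bnip1 did not pass either, at 0.03, -0.05 and -0.01. The other 6 relatives were under the filter. Hrk, a BH3-only gene, read 0.770, 0.889 and 0.847 FPKM in beta-Gal and 0.468, 0.629 and 0.531 in HuR libraries, with no overlap, and had an adjusted p of 0.0801 with no filter. Bcl2a1b and Bcl2l10 were listed at 0 in all libraries, and Bcl2a1a, Bcl2a1d and Bcl2l15 had at most 6 reads in any group. The Bcl2a1 genes are near-identical copies whose reads are uncertain.

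Downstream of the pore, 6 of 15 tested genes of the cytochrome c and caspase list rose and 2 fell, with a median log2 difference of 0.13. The initiator caspase Casp9 rose from 3.41 ± 0.148 to 4.91 ± 0.388 FPKM (SD, n = 3 each, limma adjusted p = 0.00297). Dffb, the caspase-activated DNase, rose by 1.80 from 1.74 ± 0.0930 to 8.62 ± 1.23 FPKM, while Dffa, its inhibitor and chaperone, fell from 6.27 ± 0.264 to 4.45 ± 0.312 FPKM. Dffb ends 2523 bp from the end of A430005L14Rik, which lies on the other strand at 30.8 and 29.2 FPKM, and the part of its reads was not tested. Among caspase inhibitors, Xiap fell by 1.13 on the log2 scale, and Birc3 rose by 1.18, with HuR values of 32.2, 16.7 and 17.7 FPKM, and by 0.89 without HuR replicate 1. Birc2, another inhibitor of the list, read 6.62, 6.47 and 6.33 FPKM in beta-Gal and 8.17, 5.64 and 5.73 in HuR libraries and did not pass (limma adjusted p = 0.960). Without HuR replicate 1 it was called lower, at -0.16 on the log2 scale (0.0372). Cycs, cytochrome c itself, read 33.3 ± 2.12 and 38.6 ± 2.95 FPKM with an adjusted p of 0.0495. That call ended without any 1 of the 6 libraries (0.0574 to 0.144). Apaf1, the caspase 9 scaffold, did not pass (interval -0.04 to 0.40).

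Of 11 genes for outer membrane channels and for mitochondrial fission and fusion, 5 fell and none rose, with a median of -0.19. Median centring left 4 lower and 1 higher. Vdac3, a channel protein, read 33.9, 33.6 and 33.5 FPKM in beta-Gal and 23.7, 23.4 and 23.9 in HuR libraries (limma adjusted p = 1.07e-04). Its spread within groups was very small beside the difference. Mff, a receptor for the fission GTPase DRP1, fell from 5.96 ± 0.151 to 3.76 ± 0.202 FPKM, and the fusion GTPases Mfn1 and Mfn2 fell by 0.23 and 0.43 on the log2 scale. Mtch2, a mitochondrial receptor of BID, fell by 0.22 (limma adjusted p = 0.0283). Its call ended when beta-Gal replicate 2 (0.0945) or 3 (0.0894) or HuR replicate 2 (0.0707) or 3 (0.0529) was left out, with no filter (0.0572) and with median centring (0.0514).

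Among 22 kinases, ubiquitin enzymes and scaffolds known to act on these proteins, 4 rose and 8 fell, with a median of -0.08. The falls numbered 5 without any 1 beta-Gal replicate, and median centring turned the balance to 7 higher and 5 lower, against 4 and 13 under TPM scaling. The kinase Mapk3 rose from 39.3 ± 0.380 to 49.8 ± 2.48 FPKM (SD, n = 3 each). Ywhaq, a 14-3-3 protein, fell by 0.54, and Dynll1, a dynein light chain that binds BIM, rose by 0.47 on the log2 scale. Usp9x, a deubiquitinase of MCL1, fell by 0.43 (limma adjusted p = 0.00572), and so did the MCL1 ubiquitin ligase subunits Fbxw7 and Btrc, by 0.35 and 0.28 (0.0278 and 0.0417). The Fbxw7 call ended without any 1 beta-Gal replicate (0.0668 to 0.0909), with no filter (0.0767) and with median centring (0.0533). The Btrc call ended without any 1 beta-Gal replicate (0.0761 to 0.127), without HuR replicate 1 (0.0842) or 3 (0.102), with no filter (0.106) and with median centring (0.0772). The kinases Pim1 and Pim3, which phosphorylate BAD, rose by 1.95 and 1.25. Both were highest in HuR replicate 1, Pim1 at 51.4 FPKM against 23.1 and 21.8 and Pim3 at 29.1 against 17.1 and 14.5, and without that library the differences were 1.56 and 0.97.

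Of 16 transcriptional regulators of the family, 7 rose and 1 fell, with a median of 0.16. Under TPM scaling 5 rose and 3 fell. Trp53, the gene of p53, rose from 17.4 ± 0.961 to 25.6 ± 3.65 FPKM, and its negative regulator Mdm2 rose by 1.73 on the log2 scale. Trp53inp1, a p53-induced cofactor, rose from 35.3 ± 1.64 to 68.4 ± 3.72 FPKM (limma adjusted p = 6.75e-05). Foxo3, which is known to drive Bcl2l11 and Bbc3, rose from 5.71 ± 0.191 to 9.38 ± 1.34 FPKM, and E2f1 from 1.49 ± 0.292 to 2.79 ± 0.331 (SD, n = 3 each). The fall was that of Ppp1r13b, a p53 partner, by 0.18 (limma adjusted p = 0.0153). It was not called without beta-Gal replicate 1 (0.0505) or 2 (0.0631), nor with the replicate number as a block (0.0520). Without HuR replicate 1, 8 regulators rose and 3 fell.

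**Figure D4:**
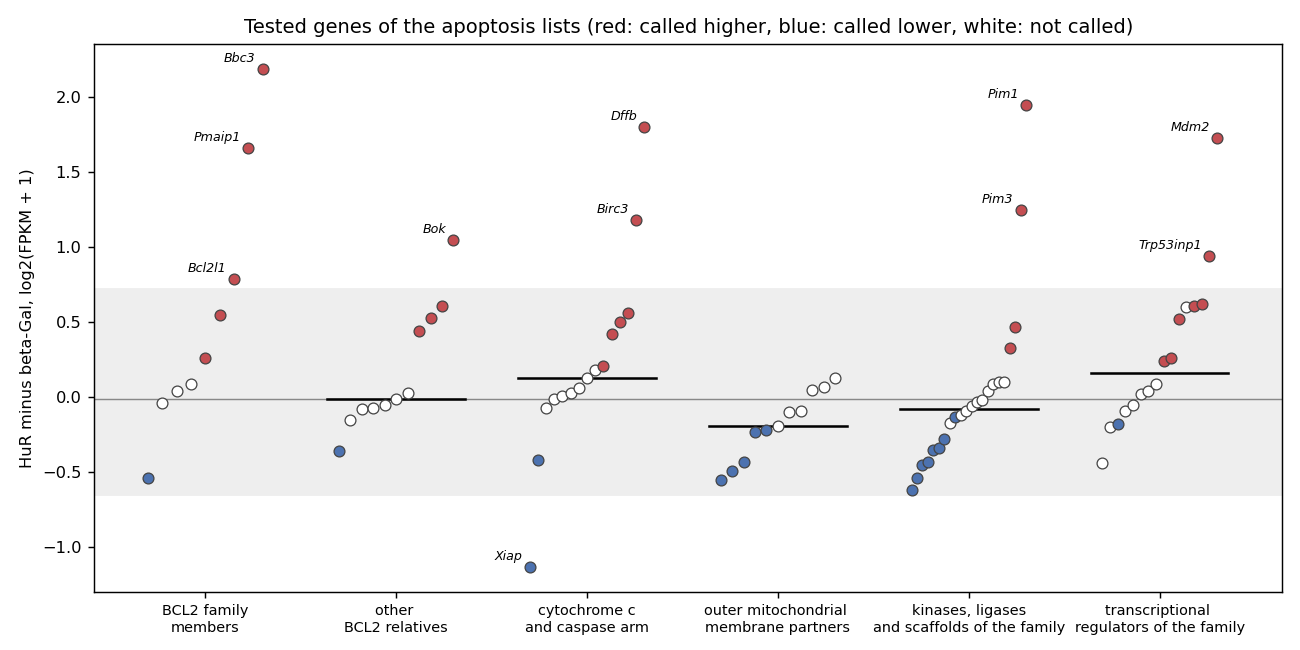
Log2 differences of HuR minus beta-Gal (vertical axis) for tested genes of the 10 members and 5 related lists (horizontal axis), each ordered by value. Red points were called higher, blue lower, white neither, and black lines are medians of the related lists. The grey band spans the 5th to 95th percentile of all tested genes, -0.65 to 0.72, and Bbc3, Pmaip1, Bcl2l1, Dffb, Pim1, Mdm2 and Xiap are among the points outside it.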

How the data were processed

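The authors' deposited table gives FPKM per gene model for 6 libraries of total RNA, with gene length and coordinates. The build GRCm38.p6 and the tools DESeq2 1.16.1, featureCounts 1.5.0-p3 and HISAT2 2.0.5 are named in the submitters' processing notes without their roles, and no source used here states strandedness. Groups and replicate numbers come from the sample titles. Multiplied by length, 100% of the FPKM values were whole multiples of a step per library (tolerance 0.001), which gave whole reads. They were used for depth, for the exact intervals, which cover counting error only, and for limma voom. One read on a 1 kb model equals 0.0573 to 0.0664 FPKM.

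limma 3.58.1 in R 4.3.3 was fitted to log2(FPKM + 1) over all genes that reached 1 FPKM in 3 or more libraries, with a mean-variance trend and the group as the only term. Tests were two-sided with Benjamini-Hochberg adjustment and a threshold of 0.05. Differences are on that log2 scale, which understates changes of low genes. The step was tested on simulated data. The members and lists were chosen with earlier results of these data known. Named were all members and relatives, Elavl1 and up to 4 called genes of each list with the smallest adjusted p. Some genes that this rule names are not reported here. Casp9, Birc2, Birc3, Cycs, Apaf1, Mtch2, Usp9x, Fbxw7, Btrc, Pim1, Pim3, Trp53, Ppp1r13b and neighbouring genes were added after their values were seen. A planned edgeR alternative was not run, since the unit is FPKM. Promoters are from RefSeq (GRCm38.p6) and 3' UTRs from GENCODE M21. Tables and plots used matplotlib 3.10.9, pandas 2.3.3, numpy 2.4.6, scipy 1.17.1 and Python 3.11.15.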

Additional observations from a re-analysis of the deposited data

How the results depend on the processing

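Over 17 alternatives (2 other pseudocounts, 2 other filters, 3 other scalings, no mean-variance trend, the replicate block, voom on recovered reads, only protein-coding genes, and 6 fits that omit a library), Bax, Bbc3, Bcl2l1 and Mcl1 kept their direction and their call. Their log2 differences ran from 0.45 to 0.60, 2.00 to 2.37, 0.70 to 0.85 and -0.66 to -0.50. Pmaip1 kept its call in the 16 that tested it, though under the main filter its inclusion already required a difference. Members called higher numbered 4 or 5 and called lower 1 in every alternative, and 4 to 5 with a library left out. Genes called higher fell from 2334 to 1543 under TPM scaling, and ran from 1750 to 2371 with a library left out. TPM scaling turned the uncalled Bak1 to -0.06, Bad to -0.01 and Bcl2l12 to -0.06. Bcl2l12 was also -0.02, -0.05 and -0.14 without beta-Gal replicates 1 and 2 and HuR replicate 2, and 0.15, its highest, without beta-Gal replicate 3. Bnip1 was 0.04 with median centring, 0.05 with quantile normalization, 0.01 with voom and 0.0024 and 0.01 without beta-Gal replicate 2 and HuR replicate 1, and Bnip3l ran from -0.13 to 0.0027 with a library left out. Birc2 was 0.03 with median centring and with quantile normalization, 0.0013 with voom and -0.16 to 0.07 with a library left out, 0.01 without beta-Gal replicate 1 and 0.06 without HuR replicate 3. The cause was not tested. Among relatives, 1 rose at a minimum of 5 FPKM against 4, where fewer genes are tested. Kinases, ligases and scaffolds fell in 5 cases with no filter or a minimum of 5 FPKM against 8, and 7 rose with voom against 4. Regulators called lower ranged from 0 to 3 against 1.

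Deviations of same-numbered libraries from their group means did not go together (Pearson r of -0.029, 0.001 and -0.014 over 11281 genes). This does not settle whether same-numbered samples share an animal or a culture, which no source used here states. With the replicate block 4 members were higher and 1 lower, and 2084 and 2465 of all genes. Its adjusted p was 0.0904 for Bid, 0.0538 for Bmf, 0.0721 for Mtch2, 0.0805 for Btrc and 0.0520 for Ppp1r13b, and 6 of the kinase list fell against 8. No library correlated best with its own number. With 3 against 3 libraries an exact permutation test cannot go below p = 0.1, so single values were given without one. Depth limits Bcl2 and the relatives under the filter.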
